A study of Mus musculus with 12 samples.

Results

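The genes described here are 10 immediate-early genes, the FOS and JUN genes Fos, Fosb, Jun and Junb, the EGR genes Egr1 and Egr2, the NR4A nuclear receptor genes Nr4a1, Nr4a2 and Nr4a3, and Atf3. They were chosen by symbol and are 10 of the 33100 gene rows of the count table. All 10 passed the filter on low counts that left 16831 genes tested. RNA was sequenced in bulk from mouse samples labelled as sorted natural killer (NK) cells, in 4 groups of 3 libraries: tumor and spleen from wild-type (WT) mice, and tumor and spleen from mice in which 1 gene was conditionally knocked out (cKO). The labels give no age, no strain, no Cre driver, no type of tumor and no treatment, and no group is said to share an allele with another. They do not say whether libraries came from separate animals, so every p-value speaks only of the spread among these libraries, which may be technical.

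Immediate-early genes are transcribed within minutes of a signal at the cell surface, without new protein synthesis, because the factors that switch them on are already present and wait to be phosphorylated. Serum response factor acts through the CArG box and CREB through the cAMP response element (CRE). In lymphocytes, receptor engagement raises them through MAP kinases, calcium and calcineurin. FOS and JUN proteins pair to form AP-1, EGR proteins are zinc-finger factors, and the NR4A proteins are nuclear receptors that act without a known natural ligand. NR4A factors are known in T cells for restraining effector function under lasting stimulation. The same genes are also induced by the enzymes and warmth used to free cells from a tissue, and they respond strongly in macrophages.

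Upstream sequences of 4 of the genes are shown, because Fos, Egr2 and Nr4a2 fell in tumor cKO whereas Nr4a1, a close relative of Nr4a2, did not pass the test. Each is the 250 bases before a RefSeq transcription start on GRCm38.p6, 5′ to 3′ along the gene. Capitals mark the 5-base CRE core TGACG or its reverse complement, in Egr2 also the CArG box, and in Nr4a1 also the EGR site. RefSeq gives 5 start windows for Egr2, and the window printed was chosen after the motifs had been searched.
Fos, chr12:85473640-85473889, plus strand: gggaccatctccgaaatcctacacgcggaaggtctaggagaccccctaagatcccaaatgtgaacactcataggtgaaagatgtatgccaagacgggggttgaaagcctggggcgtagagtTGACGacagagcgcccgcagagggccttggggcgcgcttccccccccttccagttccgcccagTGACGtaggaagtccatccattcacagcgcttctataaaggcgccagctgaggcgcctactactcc
Egr2, chr10:67537619-67537868, plus strand: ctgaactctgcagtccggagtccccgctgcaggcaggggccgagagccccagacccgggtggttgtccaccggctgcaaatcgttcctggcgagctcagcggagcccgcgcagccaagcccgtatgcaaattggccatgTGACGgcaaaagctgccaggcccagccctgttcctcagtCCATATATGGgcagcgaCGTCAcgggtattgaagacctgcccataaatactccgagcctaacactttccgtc
Nr4a1, chr15:101266596-101266845, plus strand: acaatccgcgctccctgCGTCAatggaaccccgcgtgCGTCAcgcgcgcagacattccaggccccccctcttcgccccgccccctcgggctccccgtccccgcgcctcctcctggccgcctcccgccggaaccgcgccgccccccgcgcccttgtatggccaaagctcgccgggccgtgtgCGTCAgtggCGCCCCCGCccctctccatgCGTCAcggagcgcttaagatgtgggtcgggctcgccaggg
Nr4a2, chr2:57124004-57124253, minus strand: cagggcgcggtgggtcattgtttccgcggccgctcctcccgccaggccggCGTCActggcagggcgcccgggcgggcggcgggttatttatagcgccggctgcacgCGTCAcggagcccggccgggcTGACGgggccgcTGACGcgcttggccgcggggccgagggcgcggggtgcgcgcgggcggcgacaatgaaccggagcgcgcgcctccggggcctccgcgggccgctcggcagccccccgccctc

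RefSeq windows of 300 bases, from 250 before to 50 after the start, were used for 9 of the genes. TGACG on either strand was present in 8 of the 9 (Fos, Fosb, Junb, Egr2, Nr4a1, Nr4a2, Nr4a3 and Atf3), against 23% of the 27025 genes with a window and 20.8% of all 32851 windows. Nr4a1, Nr4a2 and Nr4a3 each held 4 copies, and 0.255% of genes held at least 4. Nr4a1 and Nr4a2 therefore shared this count. In tumor cKO Nr4a2 was called lower and Nr4a1 was not, which is no test of a difference between them. A CArG box was found in Egr2, with its first base 72 bases before the start of the window printed, and in 1.81% of genes. Egr2 was searched in 5 windows and each other gene in 1. Bases beyond the windows were not searched, so a box farther upstream of Fos or another gene would be missed. The EGR site GCGNGGGCG, with T or G at N, was found in Fosb and Nr4a1 and in 3.93% of genes. The full CRE TGACGTCA, whose 8 letters contain TGACG, was found in 0 of the 9 and in 2.03% of genes. The AP-1 site TGANTCA was found in 0 of the 9 and in 8.97% of genes, and the NR4A monomer site AAAGGTCA in 0 of the 9 and in 1.7%. These are matches of letters in short windows and say nothing of binding.

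Library totals ranged from 9542329 to 37118494 counts. Levels are counts-per-million values (CPM) over library totals scaled with composition factors, and log2 changes are edgeR estimates ± SE, with a call where p, adjusted by Benjamini and Hochberg's method over every gene tested, was under 0.05. Markers of the labelled cell type were present in spleen and low in tumor: the summed level of 13 NK genes ran from 1440 to 1925 CPM in spleen, and in tumor from 86.1 to 321 CPM (WT) and from 63.9 to 94.9 CPM (cKO). Levels of Ncr1, the NK receptor NKp46, lay between 0.421 and 1.86 CPM in tumor, against 90.8 to 204 CPM in the spleen libraries. B-cell markers (8 genes) summed to between 5 and 34 CPM in tumor but 2013 to 2653 CPM in spleen. T-cell markers (10 genes) summed to 91 to 188 CPM in spleen, 263 to 334 CPM in tumor WT and 546 to 744 CPM in tumor cKO. Macrophage markers (18 genes) summed to 585 to 598 CPM in spleen WT, 790 to 1034 CPM in spleen cKO, 15732 to 29755 CPM in tumor WT and 1845 to 5313 CPM in tumor cKO. Of these 18, only Vsig4 was without reads in a whole group, spleen WT. In bulk RNA, fewer cells of a type and less RNA per cell cannot be told apart. Tumor WT replicate 2 and tumor cKO replicate 3 stood apart from their groups, and results are given without both where that changed a call or moved a fold by over 1.5 times. The first was highest in its group for 8 of the 10 genes and the second lowest in its group for 7. Leaving both out is therefore not a neutral check of falls in tumor cKO.

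The comparison of tumor cKO with tumor WT asks how the knockout changes RNA in the tumor samples. Of the 10 genes, 8 were lower in tumor cKO and 0 higher, with falls of 1.92-fold to 4.38-fold. Nr4a2 fell most, Fosb and Egr2 by over 3-fold, and Atf3, Fos, Junb and Jun by 2.52-fold to 2.76-fold. Egr1 and Nr4a1 did not pass. Among all genes tested, 21.6% were called lower and 16.4% higher, and the median log2 change was −1.39 over the 10 genes and −0.117 over all genes. Without a composition factor the median over all genes was 0.056 and that of the 10 genes −1.21, with all 10 still below 0. The share of all calls that were higher, 43.1%, became 57.5% without a composition factor and 59.1% by limma-trend on RPKM.

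Among the FOS and JUN genes, Fosb, which encodes a FOS protein and a shorter splice form linked to lasting stimulation, stood at 548, 1131 and 588 CPM in the 3 tumor WT libraries and at 196, 293 and 220 CPM in the 3 tumor cKO libraries. Every WT library lay above every cKO library, and WT replicate 2 was far above the others of its group. The log2 change was −1.68 ± 0.26 (adjusted p = 0.000493). Fos, the prototype of the family, was at 314, 596 and 280 CPM in tumor WT and 137, 215 and 96 CPM in tumor cKO. Those groups did not overlap either, and the log2 change was −1.41 ± 0.31 (adjusted p = 0.00439). With tumor WT replicate 2 and tumor cKO replicate 3 left out, the fall of Fos was 1.68-fold in place of 2.66-fold (adjusted p = 0.00879).

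Junb, a JUN protein prominent in activated lymphocytes and macrophages, was at 681, 784 and 619 CPM in tumor WT and 259, 365 and 184 CPM in tumor cKO. Its log2 change was −1.37 ± 0.21 (adjusted p = 0.000415), with all 3 WT libraries above all 3 cKO libraries. The listed exons of Junb (GRCm38 chromosome 8, 84974484 to 84978718) share 173 bases of 2301 with Prdx2 on the opposite strand, and the counting strand is not given in the sources used here. Prdx2 itself was at 38.9 to 57.7 CPM in tumor WT and 28.3 to 34 CPM in tumor cKO. Jun, the partner that binds most FOS proteins, was at 410, 470 and 402 CPM in tumor WT and 172, 244 and 93.3 CPM in tumor cKO. The log2 change of Jun was −1.33 ± 0.26 (adjusted p = 0.00199), and cKO replicate 3 was the lowest of all 12 libraries. Jun (chromosome 4, 95049034 to 95052222) shares 232 bases of its 3189-base exon with the antisense gene Junos, which was at 20.4 to 26 CPM in tumor WT and 4.41 to 11.4 CPM in tumor cKO. Reads in the shared bases cannot be assigned to a strand here.

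The EGR genes differed in what the test showed. Egr2, which with Egr3 restrains lymphocyte activation and in macrophages marks an alternative state, was at 144, 144 and 160 CPM in tumor WT and 56.5, 64.5 and 21.1 CPM in tumor cKO. The WT libraries lay close together and well above the cKO libraries, with a log2 change of −1.66 ± 0.30 (adjusted p = 0.00113). Egr1, a sensor of MAP kinase signalling, was at 191, 473 and 180 CPM in tumor WT and 142, 209 and 187 CPM in tumor cKO. The groups overlapped, and the log2 value of −0.65 ± 0.31 did not pass (adjusted p = 0.119, 95% confidence interval −1.33 to 0.03). Without tumor WT replicate 2 the Egr1 value was −0.05 (adjusted p = 0.841), whereas it passed without tumor WT replicate 3 (−0.87, adjusted p = 0.0443) and without a filter on low counts (adjusted p = 0.000743).

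Of the NR4A genes, Nr4a2 and Nr4a3 were called lower and Nr4a1 was not. Nr4a2, which encodes NURR1, was at 235, 371 and 188 CPM in tumor WT and 70.2, 77.7 and 33.6 CPM in tumor cKO, so that the lowest WT library was above the highest cKO library. The log2 change was −2.13 ± 0.34 (adjusted p = 0.000636), or 4.38-fold, and 2.85-fold with the 2 libraries that stood apart left out (adjusted p = 3.91e-05). Nr4a3, which encodes NOR1, was at 187, 253 and 133 CPM in tumor WT and 121, 102 and 75.5 CPM in tumor cKO. Its groups nearly met, at 133 and 121 CPM, with a log2 change of −0.94 ± 0.25 (adjusted p = 0.011). That call was lost with the same 2 libraries left out (−0.51, adjusted p = 0.0842) and by limma-trend on RPKM (−0.73, adjusted p = 0.0526). Nr4a1, which encodes NUR77 and is widely used as a reporter of antigen receptor signalling, was at 188, 211 and 155 CPM in tumor WT and 138, 201 and 146 CPM in tumor cKO. The Nr4a1 groups overlapped, and the log2 value of −0.19 ± 0.17 did not pass (adjusted p = 0.394), with a 95% confidence interval from −0.56 to 0.17.

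Atf3, a stress-induced bZIP factor that dampens inflammatory genes in macrophages, was at 461, 349 and 469 CPM in tumor WT and 151, 251 and 60.7 CPM in tumor cKO. The groups did not overlap, but the cKO libraries were widely spread, and the log2 change was −1.47 ± 0.45 (adjusted p = 0.0248). The Atf3 call was lost without tumor WT replicate 1 (adjusted p = 0.0628), tumor WT replicate 3 (0.0658) or tumor cKO replicate 1 (0.0703), and with the tumor libraries fitted alone (0.0561). Its log2 value stayed between −1.45 and −1.38 in those 4 fits.

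**Figure D1:**
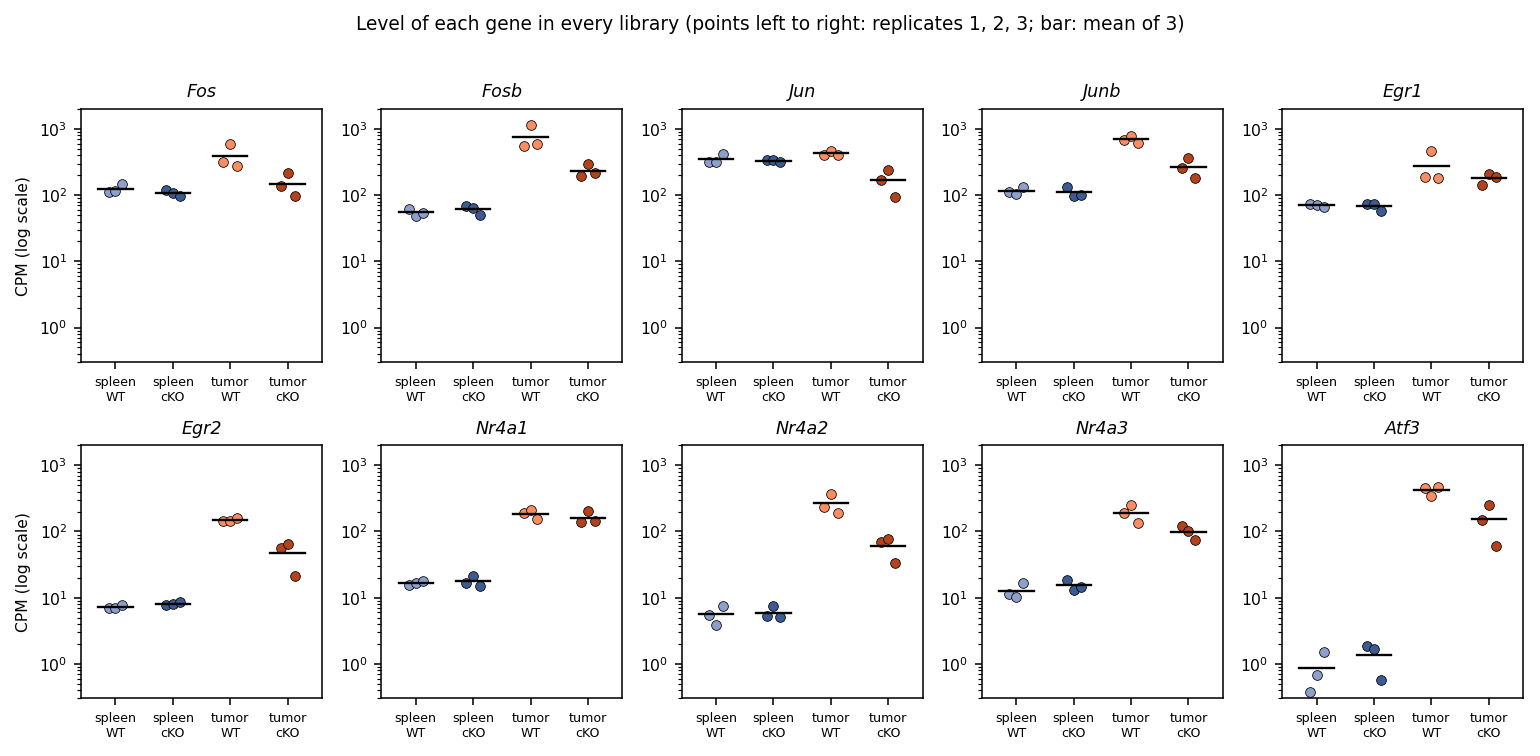
Level of each of the 10 genes in CPM on a log axis for the 3 libraries of each group, with the group mean as a bar. In tumor, the WT points lie above all cKO points for 8 of the genes, while those of Egr1 and Nr4a1 overlap. Of all genes tested, 27.3% had cKO libraries all below the WT libraries.

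Macrophage markers moved in the same comparison: 15 of the 17 tested were lower in tumor cKO and 0 higher, and their summed level was 22138 ± 7089 CPM in tumor WT and 3936 ± 1841 CPM in tumor cKO (SD, n = 3 each), a 5.62-fold difference of means. Of the 13 NK markers, 9 were lower and 0 higher, and of the 10 T-cell markers 5 were higher and 1 lower. By library, the macrophage sum was 15732, 29755 and 20928 CPM in tumor WT replicates 1, 2 and 3 and 5313, 4651 and 1845 CPM in tumor cKO. Tumor WT replicate 2, with the highest macrophage sum, also had the highest level of 8 of the 10 genes in its group, all but Egr2 and Atf3, for which it was the lowest. Tumor WT replicate 2 also had the largest library total, 37118494 counts, and the lowest NK sum of its group, 86.1 CPM. Tumor cKO replicate 3, with the lowest macrophage sum, had the lowest level of 7, and tumor cKO replicate 2 the highest of 9. In tumor cKO the highest macrophage sum was that of replicate 1. How often each library was highest or lowest over all genes was not counted. Fibroblast markers (7 genes) summed to 83.1 to 1648 CPM in tumor WT and 25.3 to 76.6 CPM in tumor cKO. The part of these cell types in the changes of the 10 genes was not tested.

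In spleen, where the same question was asked, none of the 10 genes passed in either direction. Among all genes tested, 0.0297% were called higher and 0% lower in spleen cKO. By edgeR that is 5 genes higher and 0 lower, with 784 genes at an unadjusted p under 0.05, while DESeq2 called 35 higher and 5 lower. Egr2 was at 7.06, 6.93 and 7.75 CPM in spleen WT and 7.78, 7.92 and 8.45 CPM in spleen cKO, the only 1 of the 10 whose groups did not overlap. Of all genes tested, 5.94% had spleen cKO libraries all above the spleen WT libraries. Its log2 value was 0.15 ± 0.33 (adjusted p = 1). Fos was at 113, 116 and 147 CPM in spleen WT and 119, 109 and 97.7 CPM in spleen cKO, with a 95% confidence interval of the log2 difference from −0.88 to 0.47. Jun was at 320, 319 and 423 CPM in spleen WT and 341, 335 and 318 CPM in spleen cKO, an interval from −0.65 to 0.46. The groups of both genes overlapped. The narrowest interval, that of Nr4a1 (15.5, 16.9 and 17.9 CPM in WT against 16.7, 21 and 14.9 CPM in cKO), ran from −0.32 to 0.46. The widest was that of Atf3, from −1.08 to 2.49, at 5 to 25 reads a library. Macrophage markers summed to 1.48-fold more in spleen cKO than in spleen WT, with 0 of 17 called.

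The ranges of the other 5 genes overlapped between the genotypes of the spleen. Fosb was at 48.7 to 62.1 CPM in WT and 50.4 to 68.6 CPM in cKO. Junb was at 106 to 131 CPM in WT and 97.6 to 131 CPM in cKO. Egr1 was at 66.2 to 72.4 CPM in WT and 57.2 to 74.2 CPM in cKO. For these AP-1 and EGR genes no library range stood clear of that of the other genotype. Nr4a2 was at 3.84 to 7.56 CPM in WT and 5.19 to 7.42 CPM in cKO, and Nr4a3 at 10.1 to 16.4 CPM in WT and 13.2 to 18.8 CPM in cKO.

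The difference of the cKO effect between the tissues was tested as an interaction, the log2 change in tumor minus that in spleen. It was below 0 for all 10 genes and called for 6, Nr4a2, Fosb, Egr2, Junb, Nr4a3 and Jun, against 10.6% of all genes called lower and 7.68% higher. The median difference was −1.27 over the 10 genes and −0.0985 over all genes. Nr4a2 had a difference of −2.21 ± 0.51 (adjusted p = 0.0132), from a fall in tumor and a spleen value of 0.08. With the libraries that stood apart left out it was 3-fold in place of 4.63-fold (adjusted p = 0.00146). Fosb differed by −1.84 ± 0.36 (adjusted p = 0.00657), Egr2 by −1.81 ± 0.44 (0.0153) and Junb by −1.30 ± 0.30 (0.0111). Macrophage markers summed to 5.62-fold less in tumor cKO than in tumor WT, and to 1.48-fold more in spleen cKO than in spleen WT. The part of cell makeup in the differences between tissues was not tested.

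The interaction calls of Nr4a3 (−1.25 ± 0.37, adjusted p = 0.0343) and Jun (−1.24 ± 0.36, 0.0349) were less stable. The first held in 6 of 18 alternative fits, with adjusted p of up to 0.0881, and the second in 8 of 18, with up to 0.0849. Jun lost its call without any 1 of spleen WT replicates 1 or 2, of the 3 spleen cKO libraries, of the 3 tumor WT libraries, or of tumor cKO replicate 1 (adjusted p = 0.0555 to 0.0849), and without a composition factor (0.0622). Nr4a3 lost it without any 1 of spleen WT replicates 1 or 2, spleen cKO replicates 1 or 3, tumor WT replicates 1 or 2, or tumor cKO replicates 2 or 3 (0.0516 to 0.0881). With tumor WT replicate 2 and tumor cKO replicate 3 both left out, the Nr4a3 difference was −0.82 (adjusted p = 0.0637). Fos (−1.21 ± 0.44, adjusted p = 0.0761) and Atf3 (−2.17 ± 0.92, 0.127) did not pass, though each did without tumor cKO replicate 2 (0.0234 and 0.0414) and without a filter on low counts (5.48e-06 and 1.04e-08), and Fos also by DESeq2 (0.0315). The Fos difference was 1.46-fold in place of 2.31-fold with both libraries that stood apart left out (adjusted p = 0.142). That of Atf3 was 6.92-fold in place of 4.5-fold without spleen WT replicate 3 (adjusted p = 0.097). Egr1 (−0.60 ± 0.44, adjusted p = 0.371) and Nr4a1 (−0.26 ± 0.25, 0.508) passed in none of 18 alternatives, and without tumor WT replicate 2 the Egr1 value was 0.00. Of all interaction calls 42.1% were higher, against 58% without a composition factor and 59.1% by limma-trend on RPKM.

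**Figure D2:**
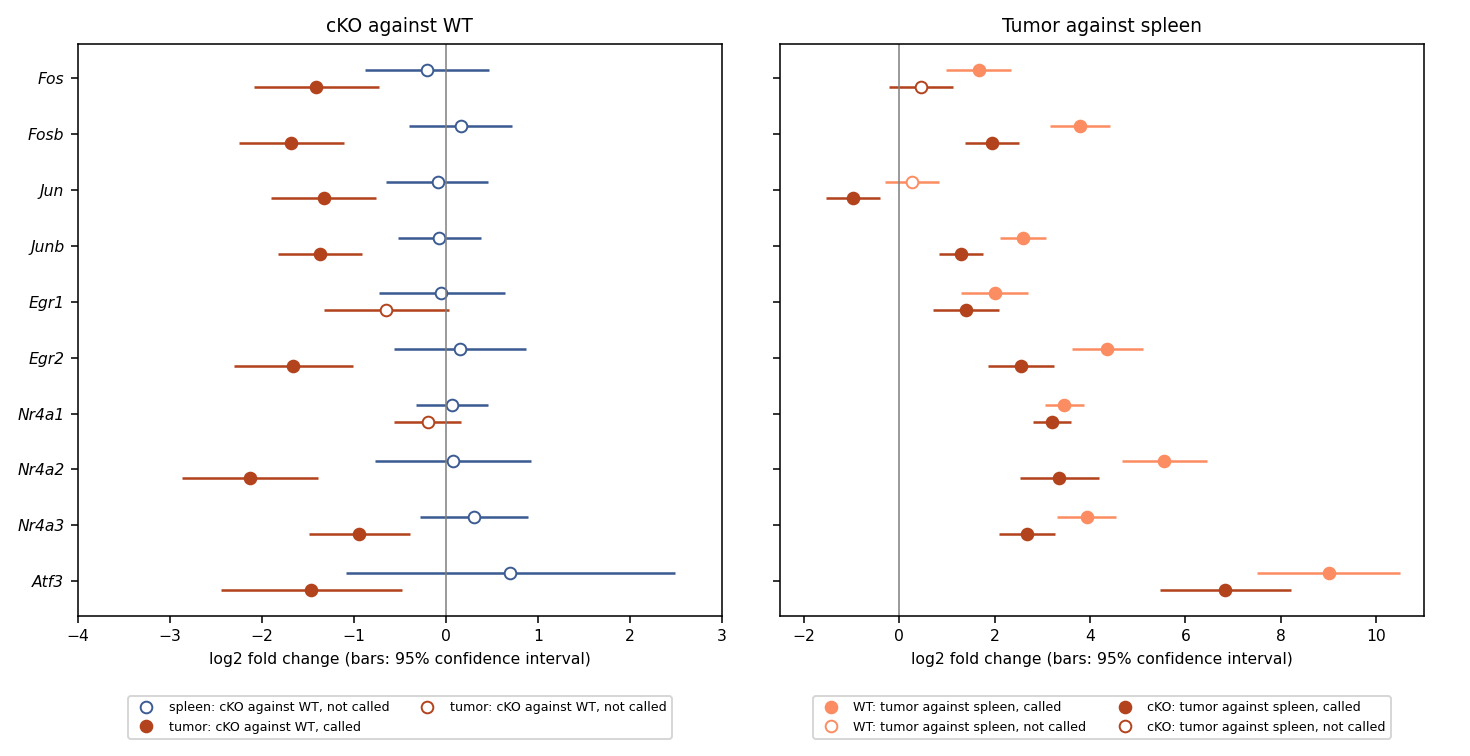
Log2 fold changes with 95% confidence intervals for cKO against WT in spleen and tumor (left) and for tumor against spleen in WT and cKO (right), with filled points for genes called. All 10 spleen points for cKO against WT are open, and 8 of the 10 tumor points are filled and below 0.

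Tumor against spleen was compared within each genotype. In WT, 9 of the 10 genes were higher in tumor and 0 lower, against 33.9% of all genes higher and 28.1% lower. The median log2 difference was 3.63 over the 10 genes and 0.116 over all genes. Atf3 differed most, from 0.379, 0.678 and 1.51 CPM in spleen to 461, 349 and 469 CPM in tumor (log2 9.01 ± 0.68, adjusted p = 1e-06). The size of that difference rests on 5, 9 and 16 reads in spleen, and it moved from 515-fold to 792-fold without spleen WT replicate 3. Nr4a2 was 47.2-fold higher in tumor (log2 5.56 ± 0.41), Egr2 20.6-fold (4.36 ± 0.34), Nr4a3 15.2-fold (3.93 ± 0.29), Fosb 13.8-fold (3.79 ± 0.28) and Nr4a1 11-fold (3.46 ± 0.19). Junb was 6.01-fold higher (2.59 ± 0.22), Egr1 4-fold (SE 0.32 on the log2 scale) and Fos 3.17-fold (1.67 ± 0.32). Egr1 was 2.66-fold higher without tumor WT replicate 2 (adjusted p = 1.7e-06) and 2.65-fold with tumor cKO replicate 3 also left out. Jun, which ranged from 402 to 470 CPM in tumor and from 319 to 423 CPM in spleen, was the gene that did not pass (0.27 ± 0.26, adjusted p = 0.375).

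In cKO, 8 genes were higher in tumor, Jun was lower and Fos did not pass, against 31.7% of all genes higher and 28.8% lower. The median was 2.25 over the 10 genes and 0.0713 over all genes. Jun went from 318 to 341 CPM in spleen to 93.3 to 244 CPM in tumor (log2 −0.97 ± 0.26, adjusted p = 0.0066). Fos, which ranged from 96 to 215 CPM in tumor and from 97.7 to 119 CPM in spleen, had a log2 value of 0.46 ± 0.31 (adjusted p = 0.218), which passed with the libraries that stood apart left out (0.71, 0.00343) and without a filter on low counts (0.00459). Atf3 was 115-fold higher in tumor (log2 6.84 ± 0.62), Nr4a2 10.2-fold (3.35 ± 0.38), Nr4a1 9.23-fold (3.21 ± 0.19) and Nr4a3 6.4-fold (2.68 ± 0.27). Egr2 was 5.87-fold higher (2.55 ± 0.32), Fosb 3.86-fold (1.95 ± 0.26), Egr1 2.64-fold (1.40 ± 0.32) and Junb 2.45-fold (1.29 ± 0.21). Both tissue comparisons also set samples with many B-cell and NK transcripts against samples with many macrophage transcripts, and tissue and cell makeup cannot be told apart here.

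Levels of different genes were compared in RPKM, reads per kilobase of gene length scaled to the library total. In spleen the order was led by Jun, at a mean of 113 RPKM in WT and 107 RPKM in cKO, well above Fos (54 and 47.5 RPKM) and Junb (50.9 and 49.2 RPKM), which overlapped each other. Jun then ranked 470 among the 33100 rows in spleen WT. Egr1 followed (15.9 RPKM in WT), then Fosb (8.9), Nr4a1 (6.86), and, overlapping in turn, Egr2 (2.16), Nr4a3 (2.14) and Nr4a2 (1.41). Atf3 was last, at 0.402 RPKM in spleen WT and 0.655 RPKM in spleen cKO, below Nr4a2 without overlap in either.

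In tumor WT, Junb led at 278 RPKM, rank 222 of all rows, above Atf3 (181 RPKM) without overlap. Atf3, Fos (157), Jun (123), Fosb (112), Nr4a1 (68.8), Nr4a2 (60.4), Egr1 (58.4), Egr2 (40.3) and Nr4a3 (29.6) each overlapped the next in order. In tumor cKO, Junb (122 RPKM) and Atf3 (75) were again at the head, but Nr4a1 (68.2) came next, and Nr4a3 (17.4), Nr4a2 (15.6) and Egr2 (14.6) last. Only Fosb and Nr4a3 were neighbours without overlap there.

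Because RPKM is per length, the makeup of each family can be described from it. The ratios below were chosen after the levels had been seen, and with 3 libraries against 3 the exact permutation test, two-sided, cannot give p below 0.1. Nr4a1 made up 44.2% ± 4.65 of the summed NR4A level in tumor WT, against 67.6% ± 7.22 in tumor cKO, 66.3% ± 5.58 in spleen WT and 63.3% ± 3.95 in spleen cKO (SD, n = 3 each). Nr4a2 made up 37.4% ± 3.79, 15.1% ± 4.23, 13.4% ± 2.99 and 13.1% ± 1.47 in the same order. Nr4a3 kept between 17.4% and 23.6% on average. The summed level was 159 ± 46.6 RPKM in tumor WT, 101 ± 20.9 RPKM in tumor cKO, 10.4 ± 1.31 RPKM in spleen WT and 11.5 ± 1.57 RPKM in spleen cKO.

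The ratio of Nr4a2 to Nr4a1 was 0.761, 1.07 and 0.741 in the tumor WT libraries and 0.311, 0.236 and 0.14 in the tumor cKO libraries, without overlap. In spleen it was 0.139 to 0.258 over both genotypes, and each tumor WT library was above all 9 others. The log2 difference of this ratio in tumor was −1.96 ± 0.38 (SE, exact permutation p = 0.1, 0.267 adjusted over 24 such comparisons), and between −2.22 and −1.64 with any 1 library left out. Nr4a2 to Nr4a3 ran from 1.85 to 2.16 in tumor WT and from 0.657 to 1.12 in tumor cKO, also without overlap (log2 difference −1.24 ± 0.23, exact permutation p = 0.1). The ratio of Nr4a3 to Nr4a1 was 0.412, 0.496 and 0.356 in WT tumors and 0.364, 0.21 and 0.213 in cKO tumors, which overlapped (exact permutation p = 0.2).

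The ratio of Junb to Jun differed between the tissues and overlapped between the genotypes. It was 0.404 to 0.531 in the 6 spleen libraries and 2.07 to 2.74 in the 6 tumor libraries. The log2 difference between tumor and spleen was 2.31 ± 0.06 in WT and 2.32 ± 0.18 in cKO, and that between cKO and WT in tumor was 0.02 ± 0.14 (exact permutation p = 1). Junb made up 22.6% ± 0.658 of the summed FOS and JUN level in spleen WT and 42.3% ± 4.74 in tumor WT, and Jun 49.6% ± 1.14 and 18.9% ± 2.54. In tumor cKO these shares were 43.2% ± 0.774 for Junb and 19.1% ± 2.9 for Jun, while the summed level was 284 ± 102 RPKM against 671 ± 184 RPKM in tumor WT. Fosb to Fos was 0.137 to 0.223 in spleen and 0.513 to 0.864 in tumor, and Egr2 to Egr1 overlapped between the genotypes of each tissue.

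**Figure D3:**
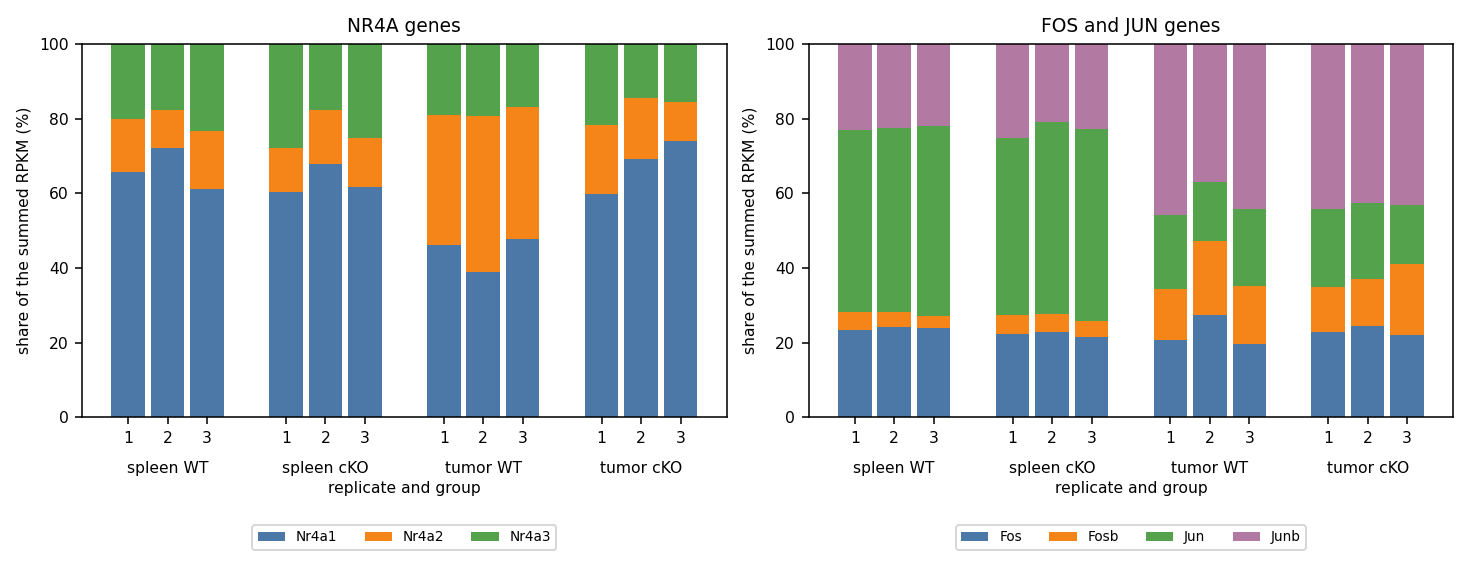
Share of each NR4A gene (left) and each FOS or JUN gene (right) in the summed RPKM of its family, in percent, for every library. Nr4a2 takes 35% to 41.7% in the tumor WT libraries and at most 18.5% in the other 9, while Junb takes 36.9% to 45.8% in the 6 tumor libraries of both genotypes.

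Related genes were taken from fixed lists. In tumor cKO against tumor WT, 21.6% of all genes tested were called lower and 16.4% higher. Of 16 AP-1 relatives, 11 were lower in tumor cKO than in tumor WT and 0 higher, with a median log2 change of −0.99. They included Batf3 (32.2 ± 6.38 CPM in WT, 4.97 ± 2.18 CPM in cKO, log2 −2.71 ± 0.46, adjusted p = 0.000801), a factor of cross-presenting dendritic cells. Batf3 is also in the marker list of those cells. Of 42 other immediate-early genes tested, 31 were lower and 2 higher, with a median near that of the AP-1 relatives. Klf4, a zinc-finger factor of monocytes, went from 637 ± 409 to 87 ± 42.3 CPM (−2.87 ± 0.48, adjusted p = 0.00106), and Arc, an activity-regulated gene best known in neurons, from 13.7 ± 7.83 to 3.82 ± 0.923 CPM (−1.85 ± 0.39, 0.00241). Without tumor WT replicate 2 these changes were −2.20 for Klf4 and −1.27 for Arc, and with tumor cKO replicate 3 also left out −1.84 and −1.08. Myc, the growth regulator, rose from 23.6 ± 2.08 to 44.1 ± 4.97 CPM (0.90 ± 0.16, adjusted p = 0.000754), and Cd69, an early activation marker of lymphocytes, from 35.6 ± 4.28 to 59.1 ± 12.1 CPM (0.73 ± 0.19, 0.00857). The immediate-early genes thus did not all move one way in tumor cKO. The number higher was 1 with the libraries that stood apart left out, when Cd69 did not pass (0.46, adjusted p = 0.0625).

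Of 30 tested genes for kinases and factors upstream, 12 were lower and 3 higher, against 21.6% and 16.4% of all genes. The median was −0.37. The counts became 6 higher without a composition factor and 7 lower by limma-trend on RPKM. Nfatc1, a calcium-driven factor, fell from 36.9 ± 6.65 to 12.8 ± 3.41 CPM (log2 −1.53 ± 0.19, adjusted p = 9.08e-05), and Mkl2, a coactivator of serum response factor, from 45 ± 22.4 to 14.8 ± 0.692 CPM (−1.61 ± 0.28, 0.000749). Ppp3cb, a catalytic subunit of calcineurin, rose from 47.4 ± 4.72 to 83.1 ± 10.2 CPM (0.81 ± 0.12, 0.00034), and Nfatc3 from 24.4 ± 1.96 to 36.9 ± 4.15 CPM (0.60 ± 0.13, 0.00358). The calcium branch of the list therefore held calls in both directions. Among the 4 tested EGR relatives and NAB corepressors, 1 was higher and 0 lower, and the higher count became 0 without any 1 tumor library and 3 without a composition factor. The gene called, Egr4, was named after its values were seen and was at 0.677 to 0.723 CPM in tumor WT and 1.71 to 2.83 CPM in tumor cKO. Egr3 was at 2.51 CPM in tumor WT and 2.31 CPM in tumor cKO (adjusted p = 0.83).

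Of 17 regulators linked to NR4A and EGR factors in activated or exhausted lymphocytes, 10 were lower and 3 higher, with a median of −1.21. Among all genes 21.6% were lower and 16.4% higher, so the share higher was near that of all genes. The lower count was 6 without tumor cKO replicate 2, 7 without tumor WT replicate 1 or 3, and 12 without a filter on low counts. Tox, a factor of exhausted T cells, rose from 9.69 ± 2.43 to 30.7 ± 4.13 CPM (log2 1.66 ± 0.22, adjusted p = 0.00017) and Pdcd1, the checkpoint receptor PD-1, from 55.8 ± 3.25 to 156 ± 27.6 CPM (1.49 ± 0.53, 0.049). The Pdcd1 call held in 6 of 19 alternatives and was lost without any 1 tumor library (adjusted p = 0.0752 to 0.136), without spleen WT replicate 1 (0.0636) or spleen cKO replicates 2 (0.0549) or 3 (0.0734), with both libraries that stood apart left out (0.133), by DESeq2 (0.361) and by limma-trend on RPKM (0.17). Dgka, a diacylglycerol kinase that limits receptor signals, fell from 49.2 ± 5.84 to 13.2 ± 5.12 CPM (−1.90 ± 0.23, 0.00011), and Cblb, a ubiquitin ligase with a like role, from 56 ± 5.99 to 15.2 ± 2.31 CPM (−1.88 ± 0.14, 1.14e-05). Other checkpoint genes of the list were called lower, among them Havcr2, from 148 to 50.8 CPM (log2 −1.54 ± 0.33, adjusted p = 0.00367). Ctla4 fell from 30.8 to 9.31 CPM (−1.72 ± 0.51, 0.0193) and Lag3 from 4.61 to 1.56 CPM (−1.56 ± 0.57, 0.0472). The Ctla4 groups overlapped, at 8.89 to 45.9 CPM in tumor WT and 6.92 to 12.9 CPM in tumor cKO. Lag3 was at low levels, and its adjusted p was close to the threshold of 0.05. Tigit did not pass (adjusted p = 0.197). Checkpoint genes of the list thus did not all move with Pdcd1. In the same tumor libraries the summed T-cell markers were 2.09-fold higher in cKO, and their part in these changes was not tested.

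Of 9 tested nuclear receptor partners and relatives, 6 were lower and 1 higher, against 21.6% and 16.4% of all genes. In this list 3 were lower without tumor WT replicate 3, with the tumor libraries alone or by limma-trend on RPKM. Rxra, which pairs with Nr4a1 and Nr4a2, fell from 33.5 ± 6.84 to 8.1 ± 3.02 CPM (log2 −2.05 ± 0.26, adjusted p = 0.000126). Nr3c1, the glucocorticoid receptor, rose from 142 ± 6.89 to 274 ± 33.7 CPM (0.95 ± 0.11, 7.7e-05). Of 12 heat-shock and dissociation-linked genes, 3 were higher and 1 lower, against 16.4% and 21.6% of all genes. The median was −0.16. Hspd1 rose from 426 ± 91.6 to 917 ± 205 CPM (1.10 ± 0.19, 0.000621) and Hspe1 from 306 ± 30.9 to 580 ± 76.3 CPM (0.92 ± 0.13, 0.000257), both chaperones of mitochondria. Bag3 was the gene that fell (115 ± 11.5 to 69.3 ± 14.5 CPM, −0.73 ± 0.24, 0.0309), and the lower count was 0 in 6 alternatives, among them those without tumor WT replicates 2 or 3 or tumor cKO replicate 1, and 4 without a filter on low counts. Hspa1a, an inducible chaperone, was at 369 CPM in tumor WT and 169 CPM in tumor cKO and did not pass (adjusted p = 0.382). In tumor against spleen, 6 of the 12 heat-shock and dissociation-linked genes were higher and 1 lower in WT, against 33.9% and 28.1% of all genes. In cKO, 7 were higher and 1 lower, against 31.7% and 28.8%. The part of tissue handling in the tissue differences was not tested. In spleen, 0 genes of these 7 lists were called between the genotypes.

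**Figure D4:**
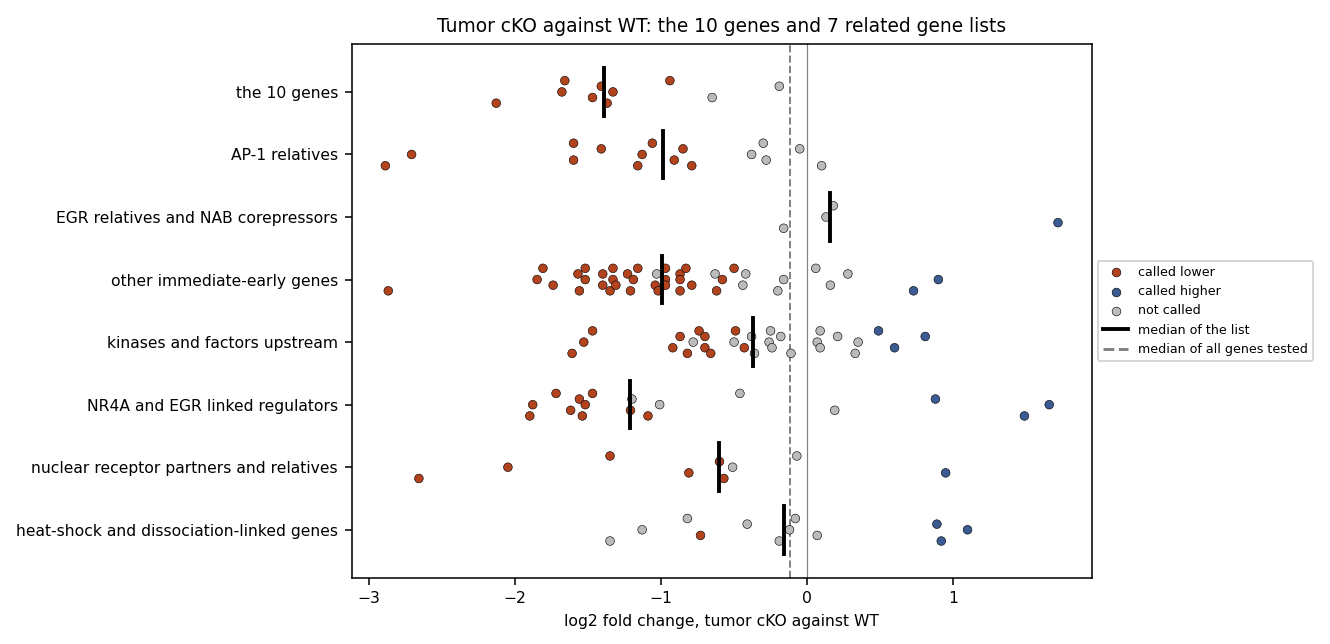
Log2 fold change of tumor cKO against tumor WT for every tested gene of the 10 described and of 7 related lists, coloured by call, with the median of each list as a bar and the median of all genes as a dashed line. The bar of the AP-1 relatives, −0.99, lies between that of the 10 genes, −1.39, and that of all genes, −0.117, and 31 of the 42 other immediate-early genes are coloured as lower. Of all genes tested, 21.6% were called lower and 16.4% higher.

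Genes with the pattern most like each of the 10 were found over the 12 libraries, as the smallest root-mean-square difference of log2 CPM centred on each gene's mean, among 9365 candidates. The likeness follows what the libraries share, tissue and cell makeup included, and is a description. Egr2 was closest to Gadd45b (difference 0.15), a stress and activation gene, followed by Csrnp1 (0.24). Gadd45b averaged 237 CPM in tumor WT and 89.8 CPM in tumor cKO, against 12.3 and 15.5 CPM in the spleen groups. Junb was closest to Cyba (0.18) and the kinase gene Pim1 (0.19), Jun to Sh3bp2 (0.20), Fos to Pea15a (0.21), and Fosb to the kinase gene Sik1 (0.25). Egr1 was closest to Fam96a (0.23), Nr4a1 to Sept8 (0.23) and the glycolytic gene Pgk1 (0.24), and Nr4a3 to Grn (0.24). Pgk1 averaged 313 CPM in tumor WT and 284 CPM in tumor cKO. The nearest genes to Nr4a2 and Atf3 were farther, Acvrl1 (0.39) and Ier3 (0.52).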

How the data were processed

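The authors aligned reads to mm10 with TopHat2 2.0.6, per the submitters' processing notes. TRIzol RNA and a NovaSeq instrument were used, per the labels' protocols. The program used for counting, with its strand setting, is not given in the sources used here. Deposited by the authors were whole-number counts per gene and RPKM values. Totals ranged from 9542329 to 37118494, which sets the counting error. Counts from 1 to 49 were even in 68.8% to 73.3% of cases, as when both mates of a pair are counted, which enlarges the counting noise.

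In R 4.3.3, edgeR 4.0.16 kept genes by filterByExpr, scaled by TMM and fitted all 12 libraries with 1 mean per group, using robust two-sided quasi-likelihood F-tests. Alternatives were DESeq2 1.42.0, limma-trend (limma 3.58.1) on log2(RPKM + 0.1), other filters, scalings and samples, and each library left out. The scripts were tested on simulated data. Replicate numbers were not used to pair libraries.

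The 10 genes and the lists were chosen with earlier results of these data known. Of each list, the 2 largest called rises and falls in tumor cKO with mean log2 CPM of at least 2 were named. Egr3, Hspa1a, Egr4, Havcr2, Ctla4, Lag3 and Tigit were added after their values were seen. For each of the 10 genes the nearest genes in pattern were taken. Of the symbols listed, 3 had no row. The deleted gene and 1 gene that the naming rule took are not reported here, so genotype labels were not checked against the former. Promoter windows are from RefSeq on GRCm38.p6, with no entry used for Egr1. Gene coordinates are those of the count table.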

Additional observations from a re-analysis of the deposited data

Results flagged for a closer look

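The interaction test of edgeR took the log2 change in tumor minus that in spleen. By it, cKO against WT differed between the tissues for 6 of the 10 genes. Of all genes tested, 10.6% were called lower and 7.68% higher. For the 6 genes the differences were −2.21 for Nr4a2, −1.84 for Fosb, −1.81 for Egr2, −1.30 for Junb, −1.25 for Nr4a3 and −1.24 for Jun. The call of Nr4a3 held in 6 of 18 alternative fits and that of Jun in 8 of 18. In tumor all 3 WT libraries lay above all 3 cKO libraries for each of these 6 genes, as they did for 27.3% of all genes tested. In spleen the groups overlapped for all of them except Egr2, whose cKO libraries lay slightly above the WT libraries. The part of cell makeup, which differed between the tumor genotypes, was not tested.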

How the results depend on the processing

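The counts of the 10 genes called stayed within 1.5 times of the reported count in all 188 results of alternatives. These include counts that were 0 and stayed 0. Calls of single genes could still be lost, as for Nr4a3 and Jun in the difference between tissues. In spleen the 5 genes called higher among all genes became 194 without a filter on low counts, 34 with the libraries that stood apart left out, 29 with the spleen libraries alone, 35 by DESeq2, 9 by limma-trend, and 0 to 8 with any 1 library left out. The 0 called lower became 36 without a filter, 2 with the spleen libraries alone, 5 by DESeq2 and 1 by limma-trend. The 1293 genes called higher for the difference between tissues became 2102 by limma-trend and 834 to 1829 with 1 library left out, the lowest without tumor cKO replicate 3. The cause was not tested. Spleen log2 values that changed sign, none called, ranged with 1 library left out from −0.16 to 0.05 for Jun, −0.21 to 0.03 for Junb (0.01 without spleen cKO replicate 2), −0.11 to 0.06 for Egr1, −0.08 to 0.17 for Nr4a1 and −0.14 to 0.34 for Nr4a2 (−0.10 without spleen cKO replicate 2). The difference between tissues for Egr1 ranged from −0.82 to 0.00. Deviations from the group means, over all genes tested, had correlations of −0.0884 to 0.111 between same-numbered libraries. Such values cannot show whether those libraries share an animal or a day, and the labels do not say. With the replicate block, 2 genes were called higher in spleen, 8 of the 10 genes were still lower in tumor cKO, and the difference between tissues was lost for Nr4a3 (−1.23, adjusted p = 0.0512), as was the tumor call of Pdcd1 (0.0657). Having 3 libraries a group limits precision, and Atf3 in spleen rests on 5 to 25 reads a library.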
